A study of Rattus norvegicus with 12 samples.

Results

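The genes described here are 9 genes of the retinol carrier and retinoic acid pathway: Rbp4, Stra6, Aldh1a1, Aldh1a2, Aldh1a3, Crabp1, Crabp2, Rara and Rarb. They were found by the gene name printed in the array files. 8 of the 9 had a probe, each with 1 probe, among 26456 gene names on the array, and no probe carried the name Rarb. The genes had been chosen with their values on these arrays known, so differences between groups are given for each as sizes with errors and without a p-value. Counts of members past the threshold used for all genes are given only beside the share of all genes.

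The tissue was kidney, taken whole from the left side of F344 rats, all females of this inbred strain at 10 weeks of age, and its RNA was put on arrays. Ischemia-reperfusion injury (IRI), in which the blood supply of the kidney is stopped and then restored, was done on the left side alone, so every injured rat kept an uninjured right kidney. The groups were IRI killed at day 3, IRI killed at day 7 and sham operation killed at day 7, with 4 rats and 4 arrays in each. No sham group was killed at day 3, so injury and time after the operation cannot be told apart in the comparison of day 3 with sham.

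Retinol travels in blood on retinol-binding protein 4, the product of Rbp4, and STRA6 is a membrane receptor that passes retinol from this carrier into cells. In the kidney the filtered carrier is taken back by megalin, the product of Lrp2, in the proximal tubule. Inside cells retinol is oxidised to retinal and then, by the ALDH1A enzymes, to retinoic acid, which CRABP proteins bind and which acts through RAR and RXR nuclear receptors on DNA.

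Levels are log2 processed signals minus the 75th percentile of all spots on the same array, so a value of 0 lies at that percentile. They compare arrays for 1 probe and are not compared between probes. The unscaled percentile ran from 665 to 743 intensity units at day 3, from 422 to 562 at day 7 and from 225 to 394 in sham. Between 65.0% and 80.6% of spots stood well above background on the 12 arrays. All 9 proximal tubule markers, which define kidney, stood above background on every array. Sham replicate 3 had the lowest percentile and the lowest share of spots above background.

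At day 3, 4 of the 8 members with a probe were higher than in sham and 2 were lower by the threshold used for all genes (adjusted p at most 0.05 in limma), that is 6 of 8, beside 57.3% of all 18506 genes tested (24.2% higher and 33.1% lower). Rbp4 and Aldh1a1 were lower, and Aldh1a2, Aldh1a3, Crabp2 and Rara were higher. The 4 day 3 arrays did not overlap the 4 sham arrays for those 6 genes, which held for 51.7% of all genes. At day 7, 4 of 8 passed against sham, 2 higher and 2 lower, beside 18.8% of all genes (8.21% higher and 10.6% lower), and 3 of 8 did not overlap, beside 21.6%. Between day 7 and day 3, 3 of 8 passed, 2 higher and 1 lower at day 7, beside 31.4% of all genes (18% higher and 13.4% lower), and 2 of 8 did not overlap, beside 36.1%. Scaled to total signal, the members at day 7 against sham were 4 higher and 2 lower, beside 3237 higher and 913 lower of all 18506 genes. Between the days 1 member was higher and 1 lower in that setting, beside 3076 higher and 2722 lower of all genes. With normexp background correction, which starts from the raw spot signals and adds an offset of 50 intensity units, 0 members were higher and 2 lower at day 3, and 0 of 8 passed at day 7 against sham or between the days. Of all 18506 genes, 1593 were then higher and 1462 lower at day 3, 85 passed at day 7 against sham and 155 between the days. These values chose the members, so nothing is read from the counts. All 8 passed the filter on dim probes, 4 of them in all 3 groups, 2 through 2 groups and 2 through 1 group alone, and such genes can pass because they are high in that group.

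**Figure D1:**
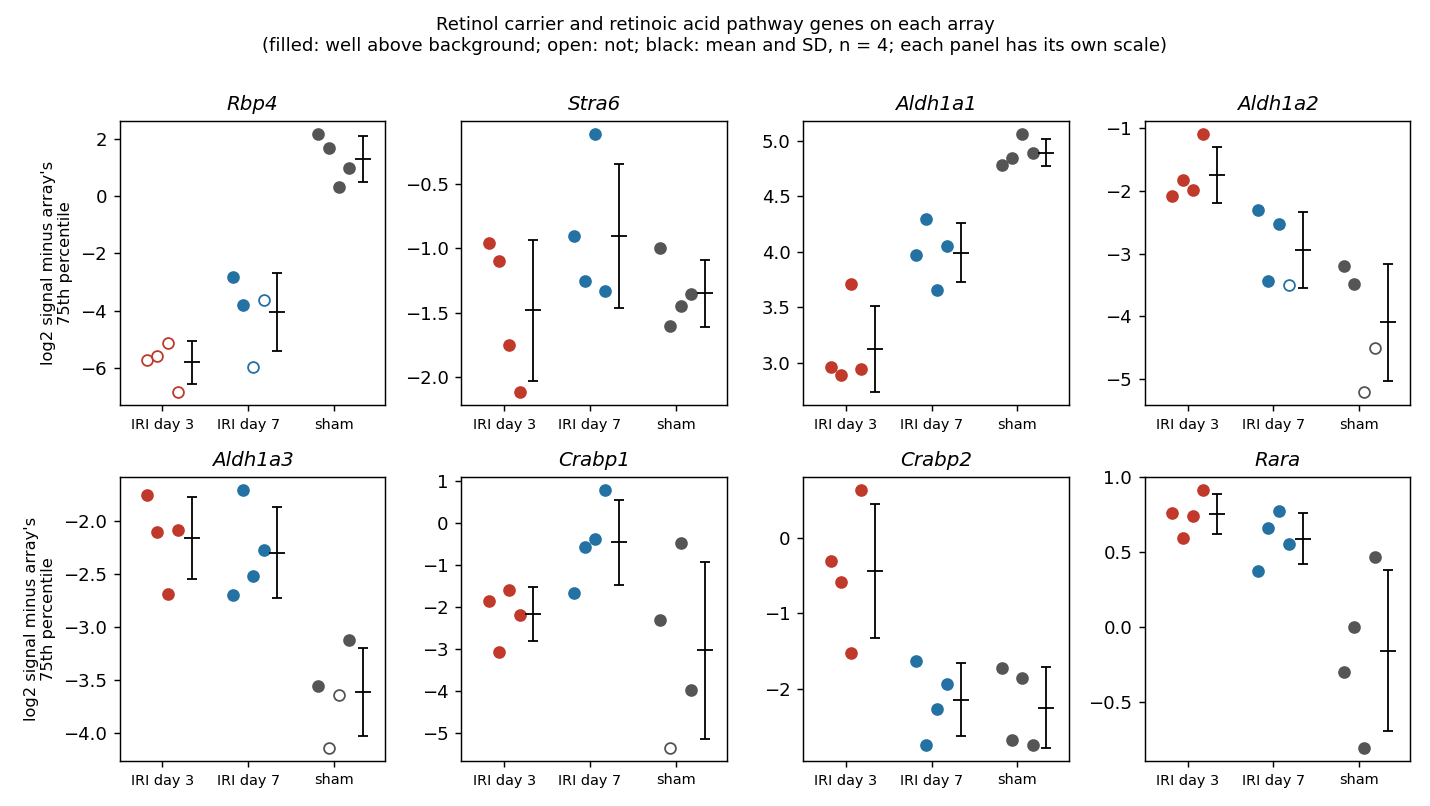
Levels of the 8 members with a probe on each of the 12 arrays, as log2 signal minus the array's 75th percentile (vertical axis), by group (horizontal axis: IRI day 3, IRI day 7, sham); filled points stood well above background, open points did not, and black bars are the mean and SD of 4 arrays. Rbp4 has open points on all 4 day 3 arrays, and the sham arrays lie from 0.32 to 2.18.

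Rbp4 encodes the plasma carrier of retinol, which is made mostly by the liver and also in adipose tissue. Its probe lies at chr1:242443795-242443854 of the rat build rn4, on the minus strand. At day 3 its levels were -5.70, -5.56, -5.11 and -6.84, and at day 7 they were -2.81, -3.79, -5.96 and -3.62, against 2.18, 1.68, 0.32 and 1.0 in sham. It stood above background on 0 of 4 arrays at day 3, on 2 of 4 at day 7 and on 4 of 4 in sham. In intensity units the probe read 6.50 to 19.2 at day 3, 9.0 to 76.1 at day 7 and 279.8 to 1576 in sham.

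The injured kidneys were below every sham kidney for Rbp4 at both times. The fitted difference of day 3 minus sham was -7.10 ± 0.62 log2 units (SE), and with the day 3 arrays set at their background limit the level was at least 63.1-fold lower than in sham. With normexp correction the Rbp4 difference was -3.09, and -4.32 when spots below their local background were left out, both smaller than that bound. These 2 settings add the same offset, and why their values differ was not tested. The difference of day 7 minus sham was -5.34 ± 0.62 (SE) as read, and -4.70 without IRI_day7 replicate 3. With the 2 dim day 7 arrays set at their limit it was -4.74, a 26.7-fold lower level, and with normexp it was -2.19. At day 7 the level was at least 1.56-fold higher than at day 3 by the same limit, with overlapping groups. The fitted difference between the days was 1.76 ± 0.62 (SE), 1.35 without IRI_day7 replicate 1 and 2.40 without IRI_day7 replicate 3.

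The other cells that could carry Rbp4 RNA were looked at through their markers, given as the sum of unlogged levels, each relative to the array's percentile. Of 7 adipocyte markers, Fabp4 and Lep stood above background on no array, and the summed level of the list was 1.40 to 2.08 at day 3, 1.5 to 2.5 at day 7 and 1.07 to 1.82 in sham. Of the 4 tested in limma, Cfd was 6.58-fold higher at day 3 and 8.73-fold higher at day 7 than in sham. Retn was 2.12-fold lower at day 3, and Adipoq and Cidec did not pass against sham. Of 7 hepatocyte markers, Alb stood above background on no array, and the list summed to 0.319 to 0.587 at day 3, 0.605 to 0.728 at day 7 and 0.526 to 1.12 in sham. Apob and F2, the 2 tested, did not pass in any comparison. The 9 proximal tubule markers summed to 35.4 to 111 at day 3, 138 to 291 at day 7 and 378 to 413 in sham. In whole kidney RNA, fewer cells of a type and less RNA per cell cannot be told apart, and the part of tubule loss in the Rbp4 difference was not tested.

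Stra6, the receptor for the carrier, has a probe at chr8:61939430-61939489 (rn4, plus strand). Its levels were -0.96, -1.10, -1.75 and -2.12 at day 3 and -0.91, -1.26, -0.11 and -1.33 at day 7, against -1.0, -1.61, -1.45 and -1.35 in sham. The 3 groups overlapped, and the differences were -0.13 ± 0.31 (SE) at day 3 and 0.45 ± 0.31 (SE) at day 7, relative to sham. The day 3 value was 0.08 without IRI_day3 replicate 4, and with normexp correction it was -0.58. IRI_day7 replicate 3 was the highest of the 12 arrays for Stra6.

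Aldh1a1, the first of the retinal dehydrogenases that make retinoic acid, has a probe at chr1:223773152-223773211 (rn4, plus strand). It read 2.96, 2.89, 3.71 and 2.94 at day 3 and 3.97, 4.29, 3.65 and 4.05 at day 7, against 4.78, 4.85, 5.06 and 4.89 in sham. In these scaled levels every injured kidney lay below every sham kidney, and IRI_day3 replicate 3 lay above the lowest day 7 array. Unscaled, the probe read 5309 to 8686 intensity units at day 3 and 7000 to 9620 at day 7, against 7507 to 11680 in sham. Both injured groups thus overlapped sham unscaled, and the differences that follow are relative to the array's percentile. The level was 3.41-fold lower than sham at day 3 (log2 difference -1.77 ± 0.20, SE) and 1.87-fold lower at day 7 (-0.90 ± 0.20, SE). Between the days the difference was 0.87 ± 0.20 (SE), higher at day 7.

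Aldh1a2, the retinal dehydrogenase best known from the embryo, has a probe at chr8:75771061-75771120 (rn4, plus strand). Its levels at day 3 were -2.08, -1.83, -1.98 and -1.09, and at day 7 they were -2.31, -3.44, -2.52 and -3.50, against -3.19, -3.48, -5.21 and -4.50 in sham. It stood above background on 4 of 4 arrays at day 3, 3 of 4 at day 7 and 2 of 4 in sham. All day 3 arrays lay above all sham arrays, and the day 3 level was 5.10-fold higher as read (2.35 ± 0.44, SE). With the 2 dim sham arrays set at their limit the difference was 1.78, or 3.43-fold. It was 0.10 with normexp correction and 0.64 when spots below their local background were also left out, so the size of the Aldh1a2 difference depends on how background is removed. At day 7 the difference from sham was 1.15 ± 0.44 (SE) with overlap, and day 7 minus day 3 was -1.20 ± 0.44 (SE) without overlap.

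Aldh1a3, another enzyme of this kind, was read by a probe whose ends lie at chr1:120847772-120853625 (rn4, minus strand). Its 60 bases thus span 5854 bases of genome, so it crosses a splice junction. Its levels were -1.75, -2.10, -2.69 and -2.09 at day 3 and -2.69, -1.70, -2.52 and -2.28 at day 7, against -3.55, -4.14, -3.64 and -3.12 in sham, where 2 of 4 arrays stood above background. Both injured groups lay above all sham arrays and overlapped each other. The level was 2.74-fold higher than sham at day 3 (1.45 ± 0.27, SE) and 2.48-fold higher at day 7 (1.31 ± 0.27, SE), and day 7 minus day 3 was -0.14 ± 0.27 (SE). With normexp background correction of the raw spot signal the differences from sham were -0.41 at day 3 and -0.10 at day 7. The median of all genes in that setting was -0.41 and -0.22. When spots below their local background were also left out, the Aldh1a3 differences were 0.30 and 0.42. The direction of Aldh1a3 thus depends on how background is removed.

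On the processed signals, scaled to the array's percentile, Aldh1a1 was lower in both injured groups, Aldh1a3 higher in both and Aldh1a2 higher at day 3. With normexp correction the differences from sham at day 3 and day 7 were -1.31 and -0.57 for Aldh1a1, 0.10 and -0.19 for Aldh1a2 and -0.41 and -0.10 for Aldh1a3. In that setting only Aldh1a1 kept its direction at both times. When spots below their local background were also left out, Aldh1a2 was 0.64 at day 3 and Aldh1a3 was 0.30 and 0.42. Fibroblast markers were also higher at day 3: all 8 tested of 9 rose at day 3 in limma. The summed level of the list was 78.8 to 124 at day 3, 57.8 to 76.3 at day 7 and 16.5 to 28.4 in sham. At day 3 the mean log2 level was 5.54 for Col3a1 and 4.99 for Col1a1, and Col1a2 was next at 2.18. The fibroblast sum thus mostly follows Col3a1 and Col1a1 and is not read as a level of fibroblasts. Macrophage markers rose in 5 of 8 tested at day 3 and summed to 24.1 to 34.8 at day 3, 18.4 to 25.9 at day 7 and 11 to 15.3 in sham. Mesothelial markers, another place where Aldh1a2 is known, summed to 0.456 to 1.38 at day 3, 0.694 to 1.68 at day 7 and 1.21 to 2.19 in sham. In sham the mean log2 level was 0.43 for Wt1, against -2.34 for Upk1b and -3.41 for Upk3b. The sum thus mostly follows Wt1 and is not read as a level of mesothelium. Wt1 was 1.65 lower at day 3 (limma adjusted p = 0.00975), and Upk1b and Upk3b did not pass. The part of these cell types was not tested.

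**Figure D2:**
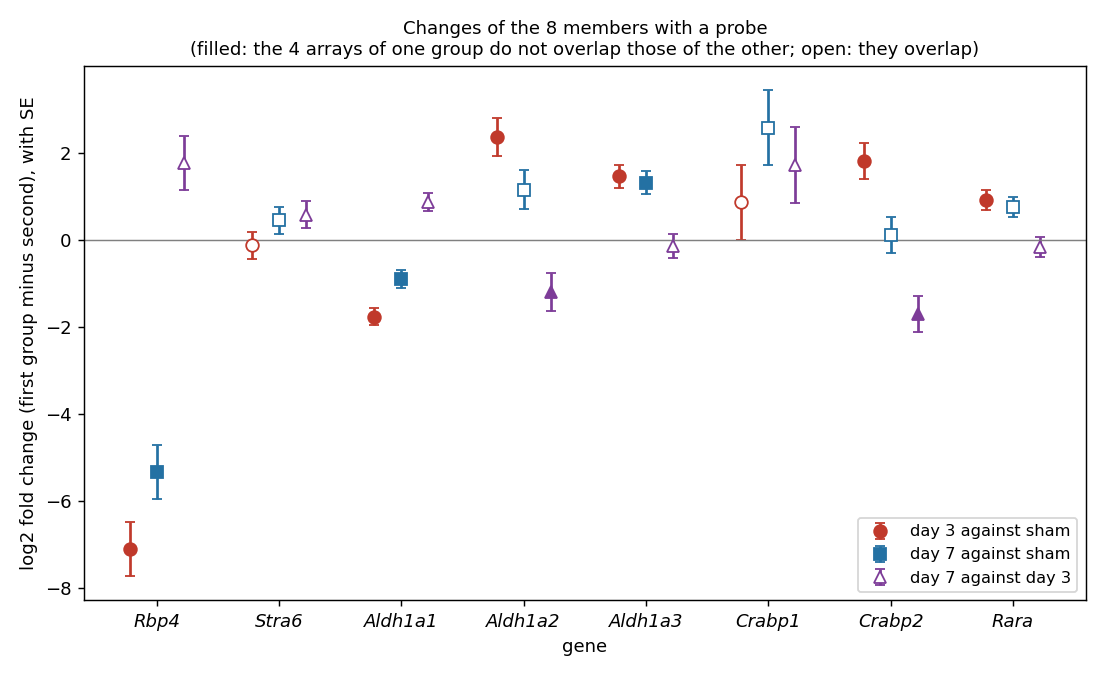
Fitted log2 fold changes with SE (vertical axis) of the 8 members (horizontal axis) for day 3 against sham, day 7 against sham and day 7 against day 3, 4 arrays a group. Filled points mark groups that do not overlap, as for Rbp4 at -7.10 and -5.34 and Aldh1a2 at 2.35, and open points mark groups that do.

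The sequences just before the transcription start are shown for the 2 members that were lower at day 3 and the 2 with the largest higher levels. They differ in whether they hold the exact letters TATAAA and in their share of G and C. The 100 bases are from RefSeq on GRCr8, 5′ to 3′ on the gene's strand, at chr1:245313552-245313651 (minus) for Rbp4, chr1:227537520-227537619 (plus) for Aldh1a1, chr8:80758541-80758640 (plus) for Aldh1a2 and chr2:175714762-175714861 (plus) for Crabp2, and capitals mark TATAAA.
Rbp4: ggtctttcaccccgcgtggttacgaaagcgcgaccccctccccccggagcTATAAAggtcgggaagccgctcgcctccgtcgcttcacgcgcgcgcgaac
Aldh1a1: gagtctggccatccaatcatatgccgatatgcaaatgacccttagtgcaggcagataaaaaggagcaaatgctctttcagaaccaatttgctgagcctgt
Aldh1a2: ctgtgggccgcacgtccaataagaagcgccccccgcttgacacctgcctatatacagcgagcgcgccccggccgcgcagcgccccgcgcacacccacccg
Crabp2: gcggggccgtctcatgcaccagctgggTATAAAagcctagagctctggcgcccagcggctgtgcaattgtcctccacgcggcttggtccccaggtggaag
TATAAA, searched on the gene's strand, was found in 2 of the 9 members, Rbp4 and Crabp2, and in 3.86% of 33469 promoters. It begins 50 bases before the start of Rbp4 and 73 bases before that of Crabp2. G and C made up 45.0% of the Aldh1a1 window, against 68.0% for Rbp4, 72.0% for Aldh1a2 and 64.0% for Crabp2. A match describes letters in this window and was not tied to any level here.

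Crabp1 and Crabp2 encode proteins that bind retinoic acid inside cells, and CRABP2 is known to deliver it to the RAR receptors. Crabp2 has a probe at chr2:180033998-180034057 (rn4, plus strand). Its levels were -0.31, -0.59, -1.52 and 0.64 at day 3 and -1.63, -2.74, -2.27 and -1.93 at day 7, against -1.73, -2.68, -1.85 and -2.74 in sham. The day 3 arrays lay above all others, and the day 7 and sham arrays overlapped. The level was 3.49-fold higher at day 3 than in sham (1.80 ± 0.42, SE), and day 7 minus sham was 0.11 ± 0.42 (SE). With normexp correction the Crabp2 difference at day 3 was 0.58, and 1.19 when spots below their local background were also left out. Day 7 minus day 3 was -1.70 ± 0.42 (SE), a 3.25-fold lower level at day 7.

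Crabp1 was read by a probe that is printed 10 times on each array, with ends at chr8:58320823-58325131 (rn4, plus strand), a span of 4309 bases. The Crabp1 and Aldh1a3 probes are shown because their bases cross a splice junction and so bind spliced RNA across it.
Crabp1: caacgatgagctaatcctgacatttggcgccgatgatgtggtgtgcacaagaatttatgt
Aldh1a3: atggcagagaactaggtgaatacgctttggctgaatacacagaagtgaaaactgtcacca
Crabp1 levels were -1.85, -3.06, -1.59 and -2.20 at day 3 and -1.67, -0.57, -0.39 and 0.80 at day 7, against -2.31, -5.36, -0.48 and -3.98 in sham. The sham arrays spread over 4.88 log2 units and overlapped both injured groups, and 3 of 4 of them stood above background.

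The differences of Crabp1 from sham were 0.86 ± 0.86 (SE) at day 3 and 2.57 ± 0.86 (SE) at day 7, and day 7 minus day 3 was 1.72 ± 0.86 (SE). The day 3 value was 0.08 without sham replicate 2 and 1.71 without sham replicate 3, and the day 7 value was 1.80 and 3.43 without the same arrays. The spots of a single array lay close together: their SD was 0.0498 to 0.114 at day 3, 0.0453 to 0.0888 at day 7 and 0.0552 to 0.472 in sham. Between arrays the SD was 0.64 at day 3, 1.01 at day 7 and 2.11 in sham, which includes differences between rats as well as between arrays. With sham replicate 2, the 1 array not above background, set at its limit of -4.08, the sham range was 3.60 log2 units and the differences from sham were 0.54 at day 3 and 2.26 at day 7. With normexp correction they were -0.67 and 0.53, so the direction at day 3 is not settled.

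**Figure D3:**
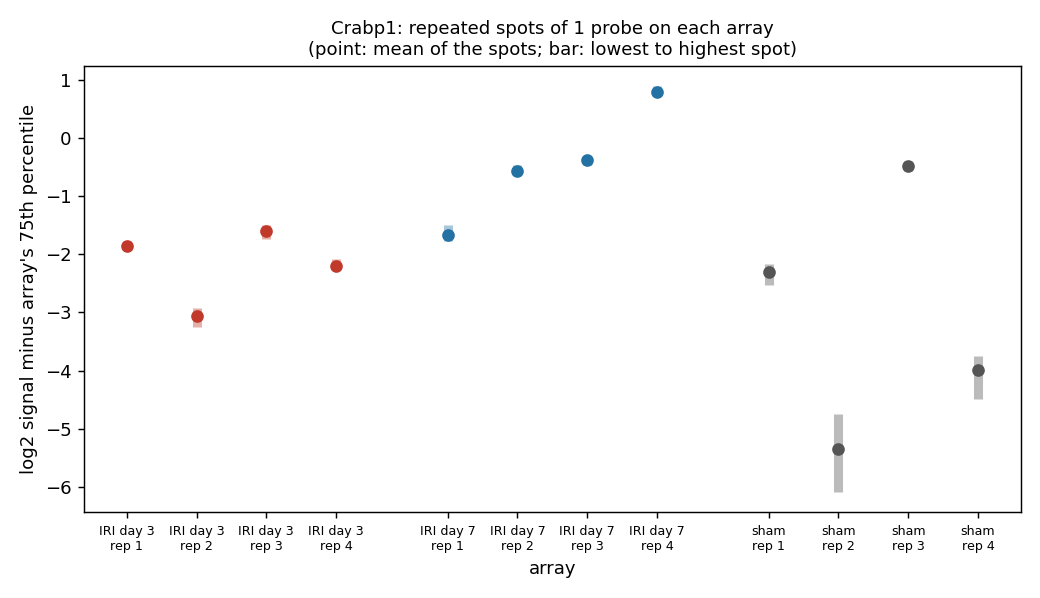
Crabp1 level on each array (horizontal axis), as log2 signal minus the array's 75th percentile (vertical axis), with the point at the mean of 9 or 10 spots of the probe and the bar from the lowest to the highest spot. The sham means run from -5.36 to -0.48, a range far wider than any bar.

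Rara encodes retinoic acid receptor alpha, the most widely expressed of the RAR receptors, and has a probe at chr10:87753153-87753212 (rn4, plus strand). Its levels were 0.76, 0.59, 0.74 and 0.92 at day 3 and 0.38, 0.66, 0.77 and 0.55 at day 7. In sham they were -0.30, 0.0029, -0.81 and 0.47. The day 3 arrays lay above all sham arrays, while sham replicate 4 lay above IRI_day7 replicate 1. The level was 1.88-fold higher at day 3 (0.91 ± 0.23, SE) and 1.68-fold higher at day 7 (0.75 ± 0.23, SE) than in sham, and day 7 minus day 3 was -0.16 ± 0.23 (SE). The day 7 difference ran from 0.53 without sham replicate 3 to 0.96 without sham replicate 4. With normexp correction the differences from sham were 0.55 at day 3 and 0.41 at day 7.

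Rarb encodes retinoic acid receptor beta, whose gene is a known target of the receptors in mouse and human through a direct repeat near its start. No level of Rarb is given, since no probe carries its name. The repeat is shown because it is the only receptor element of its kind found in the members' promoters. In RefSeq it lies at chr15:11336410-11336439 (GRCr8, plus strand), and capitals mark the match to the motif.
Rarb: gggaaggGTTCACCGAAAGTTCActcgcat
The match covers bases 26 to 41 after the transcription start. Windows of 250 bases before to 50 bases after the start were searched on both strands. For repeats spaced by 5 bases (DR5) the motifs were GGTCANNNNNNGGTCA, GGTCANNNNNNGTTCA, GTTCANNNNNNGGTCA and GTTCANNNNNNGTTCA. For a spacing of 2 (DR2) they were GGTCANNNGGTCA, GGTCANNNGTTCA, GTTCANNNGGTCA and GTTCANNNGTTCA. For a spacing of 1 (DR1) they were GGTCANNGGTCA, GGTCANNGTTCA, GTTCANNGGTCA and GTTCANNGTTCA. A DR5 match was found in 1 of 9 members and in 0.601% of 33469 promoters. DR2 and DR1 matches were found in 0 of 9 members, beside 0.326% and 0.379% of all promoters.

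Levels were also compared on each of the 3 slides, every one of which held all groups, with arrays not above background set at their limit. A slide held 1 or 2 arrays of each group. Where 2 groups do not overlap, every slide must give the same direction, so that agreement adds nothing. This holds at day 3 for Rbp4, Aldh1a1, Aldh1a2, Aldh1a3, Crabp2 and Rara, and at day 7 for Rbp4, Aldh1a1 and Aldh1a3. At day 3 against sham, Rbp4 and Aldh1a1 were lower on 3 of 3 slides, with differences from -6.66 to -4.93 for Rbp4 and from -2.17 to -1.13 for Aldh1a1. Aldh1a2, Aldh1a3, Crabp2 and Rara were higher on 3 of 3 slides, from 1.39 to 1.90 for Aldh1a2, from 0.65 to 2.16 for Aldh1a3, from 0.71 to 2.84 for Crabp2 and from 0.66 to 1.40 for Rara. Crabp1 was higher on 2 slides and lower on 1, from -2.58 to 2.06. At day 7 against sham, Rbp4 and Aldh1a1 were again lower and Aldh1a3 and Rara again higher on 3 of 3 slides. Aldh1a2 was also higher on 3 of 3, from 0.26 to 0.96, as was Crabp1, from 0.04 to 3.69, while Crabp2 ran from -0.51 to 0.41.

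For each member the 3 named genes with the most similar pattern over the 12 arrays were sought among 12514 named genes. The correlations are across arrays that fall into 3 groups and share their scaling, and they are a description. For Rbp4 these were Tef (Pearson r = 0.986), Slco1a6 (0.983) and Slc22a7 (0.981). Aldh1a1 was most like Pim3 (0.985), Slc6a18 (0.98) and Igfbp4 (0.977), and Aldh1a2 most like Kdsr (0.969), Alyref (0.969) and Cpe (0.963). Aldh1a3 was most like Mical1 (0.971), Tmx4 (0.937) and Ddit4l (0.920), and Crabp2 most like Xpo1 (0.961), Pea15 (0.945) and Mybl2 (0.940). Rara was most like Cyp4v3 (0.968), Il10rb (0.953) and Gas7 (0.948). The likeness was lower for Crabp1, whose nearest were Adam19 (0.883), Ptpn3 (0.880) and Mterf2 (0.873), and lowest for Stra6, with Paxip1 (0.740), Itpr2 (0.724) and Slit3 (0.724).

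Other genes of the pathway were taken from lists and compared in limma. These lists too were chosen with earlier results of these data known, so their adjusted p-values are a description. Of 67 listed genes 65 had a probe and 49 passed the filter on dim probes. At day 3, 26 of 49 changed against sham, 7 higher and 19 lower, in limma with adjustment over all genes, or 53.1% beside 57.3% of all genes. The median difference was -0.56, beside -0.13 over all genes. At day 7, 9 changed against sham, 1 higher and 8 lower, or 18.4% beside 18.8% of all genes, with a median of -0.21 beside -0.07. Between day 7 and day 3, 18 changed, 14 higher and 4 lower at day 7, or 36.7% beside 31.4%, with a median of 0.24 beside 0.05. With arrays scaled to total signal the split was 9 higher and 15 lower at day 3 and 5 higher and 3 lower at day 7 against sham, and the median of all genes was 0.15 and 0.17.

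Among carriers and uptake genes, 4 of 6 tested changed at day 3, 3 lower and 1 higher, beside 57.3% of all genes. Lrp2, which encodes megalin, fell to 4.47 ± 0.45 at day 3, against 6.13 ± 0.13 in sham (SD, n = 4), 3.16-fold lower (limma adjusted p = 0.000218). Amn (amnionless) and Cubn (cubilin), which form the receptor that works with megalin, fell by 1.56 and 1.23 on the log2 scale (limma adjusted p = 0.00617 and 0.00112). Unscaled, Lrp2 read 11151 to 21177 intensity units at day 3, against 15220 to 27140 in sham. Amn read 543 to 2287 against 946 to 2042, and Cubn read 2657 to 5621 against 2571 to 5471. The day 3 and sham arrays of these genes thus overlapped unscaled, and their falls are relative to the array's percentile. These 3 genes are expressed in the proximal tubule, and 7 of 9 markers of that segment were also lower at day 3 (median -3.08) and 7 of 9 higher at day 7 than at day 3 in limma. The part of tubule loss in the carrier differences was not tested.

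At day 7, 0 of 6 carriers and uptake genes passed against sham in limma, beside 18.8% of all genes. The differences were -0.78 for Lrp2 (adjusted p = 0.0518 in limma) and 0.28 for Amn. Between the days, Amn was 3.56-fold and Lrp2 1.84-fold higher at day 7 (limma adjusted p = 0.00721 and 0.0227). The Lrp2 call between the days ended without IRI_day3 replicate 2 or 4 or IRI_day7 replicate 2 or 4, and its limma adjusted p ran from 0.0111 to 0.328 over 24 alternatives. Ttr (transthyretin), which carries RBP4 in plasma, had a probe that did not pass the filter.

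Among storage and oxidation genes, 9 of 16 tested changed at day 3, 8 lower and 1 higher, beside 57.3% of all genes. Adh6 and Adh1c, alcohol dehydrogenases that can oxidise retinol, had the largest differences. Adh6 fell to -4.46 ± 1.99 at day 3 and -1.64 ± 0.68 at day 7, against 3.63 ± 0.44 in sham (SD, n = 4), and stood above background on 2 of 4 arrays at day 3. Its differences were -8.08 at day 3, or -7.55 with the dim arrays set at their limit, and -5.27 at day 7 (limma adjusted p = 1.29e-05 and 0.00142). Adh1c fell to 0.53 ± 0.68 at day 3 and 2.86 ± 0.70 at day 7, against 5.80 ± 0.20 in sham (SD, n = 4; limma adjusted p = 3.1e-06 and 0.000683).

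Adh4, another alcohol dehydrogenase, and Rdh16, a retinol dehydrogenase, fell by 3.22 and 3.10 at day 3 (limma adjusted p = 0.000477 and 0.000364) and by 1.84 and 1.64 at day 7 (0.0385 and 0.0444). The day 7 calls of Adh4 and Rdh16 held in 9 of 23 and 7 of 24 alternatives, with limma adjusted p from 0.0108 to 0.699 and from 0.0181 to 0.6. Both ended without sham replicate 1, 2 or 3 or IRI_day3 replicate 1 or 2, that of Adh4 also without IRI_day3 replicate 4 or IRI_day7 replicate 4, and that of Rdh16 also without sham replicate 4 or IRI_day7 replicate 1 or 3. Rdh10, the enzyme that feeds retinal to the ALDH1A enzymes and named here after its value was seen, was the 1 gene that rose: it read -0.65 ± 0.34 at day 3, against -2.93 ± 0.76 in sham (SD, n = 4), 4.86-fold higher (limma adjusted p = 0.00212). At day 7 Rdh10 differed from sham by 1.03 (limma adjusted p = 0.166). Between the days 6 of 16 were higher and 1 lower at day 7, beside 18% and 13.4% of all genes. The largest were Adh6 at 2.81, Adh1c at 2.33, Rdh16 at 1.46 and Aldh8a1 at 1.28 (limma adjusted p = 0.0181, 0.00156, 0.0486 and 0.0158). That of Rdh16 held in 6 of 24 alternatives and, of the arrays left out in turn, only without IRI_day3 replicate 3 or IRI_day7 replicate 1, with limma adjusted p from 0.0165 to 0.264. The 9 proximal tubule markers moved with this list, 7 lower at day 3 against sham and 7 higher at day 7 against day 3. Collecting duct markers did so too, 9 of 9 lower at day 3 and 9 of 9 higher at day 7 than at day 3, and 5 of 8 endothelial, 2 of 4 podocyte and 3 of 3 urothelial markers tested were lower at day 3. Tp63, 1 of the 3 urothelial markers, was read by its brighter probe, at 6.23 at day 3 and 7.18 in sham. Its other probe stood above background on 0 of 4 arrays in each group, so this marker is uncertain. The part of these cell types was not tested. Probes of the Adh and Rdh families may also bind close relatives, so these levels are uncertain as to the gene.

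**Figure D4:**
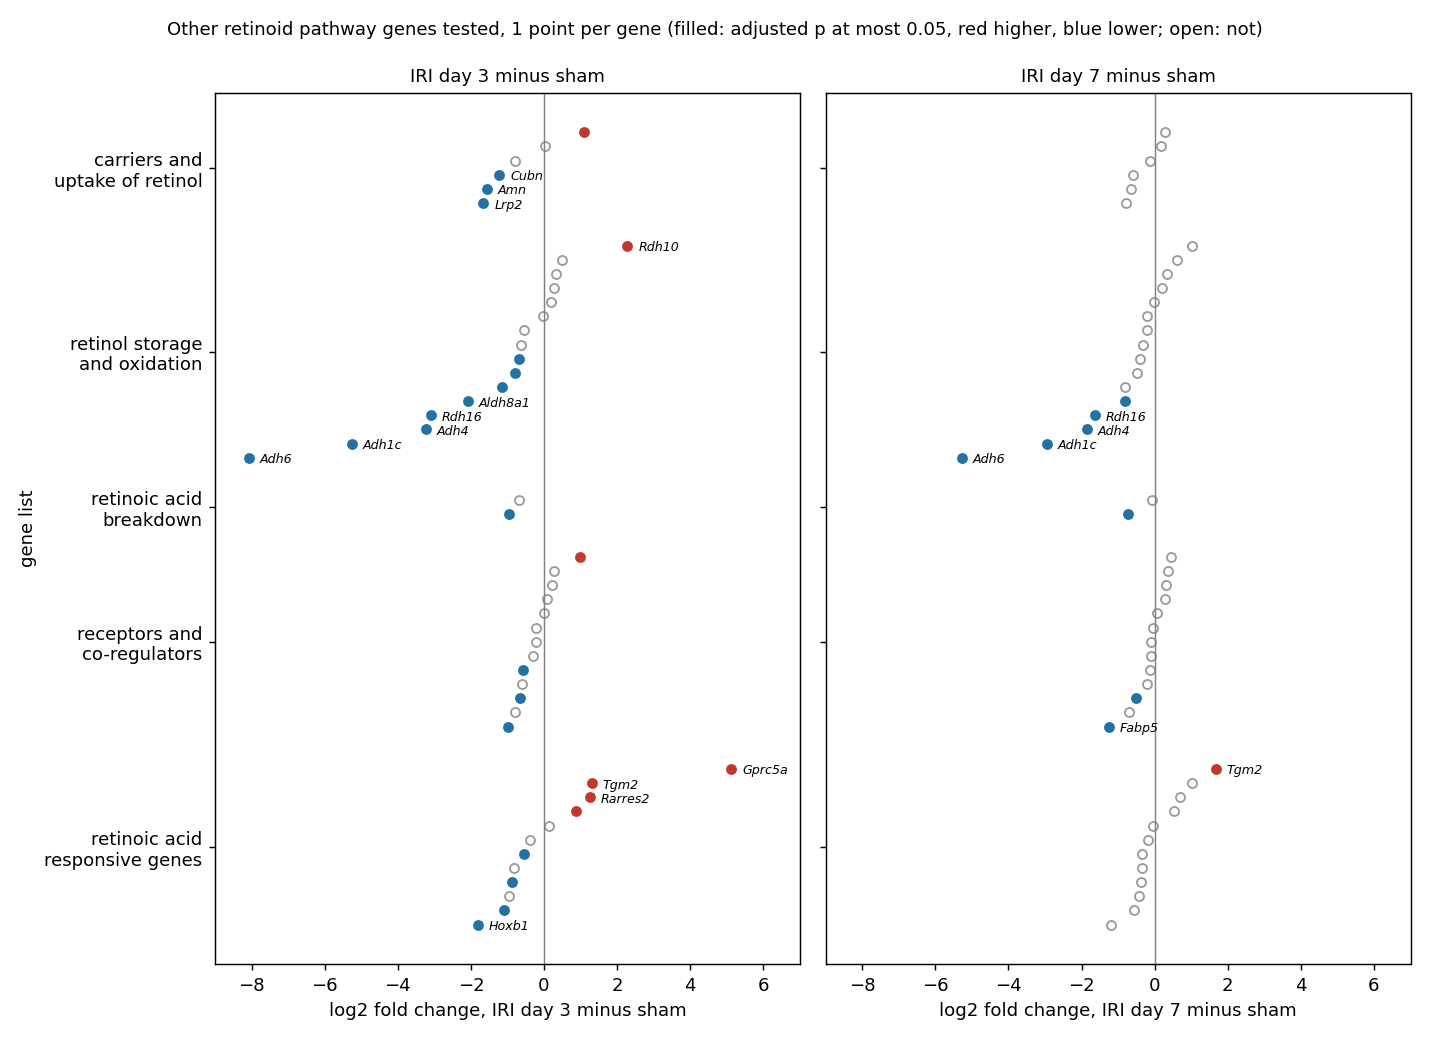
Log2 fold changes (horizontal axes) of the 49 other pathway genes tested, 1 point per gene, by list (vertical axis), for IRI day 3 minus sham and IRI day 7 minus sham; filled points passed an adjusted p of 0.05 in limma. 19 of 26 called genes lie left of 0 at day 3 and 8 of 9 at day 7, and Gprc5a is drawn at its fitted value although its sham arrays were not above background.

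Of the 4 breakdown genes, Cyp26a1 and Cyp26b1, the main enzymes that degrade retinoic acid, did not pass the filter. Cyp26c1 fell by 0.96 at day 3 and by 0.73 at day 7 against sham (limma adjusted p = 0.00116 and 0.0219). Its day 7 call ended without IRI_day7 replicate 1 or 3, and the limma adjusted p ran from 0.0112 to 0.583 over 24 alternatives. Unscaled, Cyp26c1 read 157 to 304 intensity units at day 3 and 140 to 201 at day 7, against 129 to 253 in sham. Its falls are thus relative to the array's percentile.

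Among receptors and co-regulators, 4 of 13 tested changed at day 3, 3 lower and 1 higher, beside 57.3% of all genes. Rxra and Rxrb, the partners of the RAR receptors on DNA, fell by 0.66 and 0.56 (limma adjusted p = 0.0171 and 0.00717). Both calls ended when arrays were scaled to total signal, and that of Rxra also without IRI_day3 replicate 3 (limma adjusted p from 0.00998 to 0.691 for Rxra and from 0.00514 to 0.771 for Rxrb over 24 alternatives). Ncoa2, a coactivator of nuclear receptors, fell by 0.99 at day 3 and 0.51 at day 7 (limma adjusted p = 0.00012 and 0.0265). Its day 7 call held in 14 of 24 alternatives and ended without sham replicate 1 or 3 or IRI_day7 replicate 1, 2 or 3, with limma adjusted p from 0.0165 to 0.962. Unscaled, Ncoa2 read 3376 to 3953 intensity units at day 3 and 3423 to 3747 at day 7, against 2736 to 3690 in sham. Rxra read 1536 to 2502 at day 3, against 1125 to 1994 in sham, and Rxrb read 1224 to 1824 against 810 to 1122. The falls of these genes are thus relative to the array's percentile. Rarg, the gene of receptor gamma, differed by 0.23 at day 3 (limma adjusted p = 0.327), and a second probe of it differed by -0.58.

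Fabp5, a fatty acid binding protein that can carry retinoic acid to PPAR delta, was 2.64 ± 0.53 at day 3 and 0.40 ± 0.35 at day 7, against 1.66 ± 0.56 in sham (SD, n = 4). It was higher than sham at day 3 and lower at day 7 (limma adjusted p = 0.0202 and 0.0187). The day 3 call ended without sham replicate 3 or 4 or IRI_day3 replicate 4, and the day 7 call without sham replicate 1, with limma adjusted p up to 0.0651 and 0.547 over 24 alternatives. Day 7 minus day 3 was -2.24 (limma adjusted p = 0.00103), and that call held in 24 of 24 alternatives. Ncoa1, Ncoa2 and Rxrb were higher at day 7 than at day 3 by 0.65, 0.48 and 0.45 (limma adjusted p = 0.0247, 0.0221 and 0.0408). They held in 17, 20 and 11 of 24 alternatives, with limma adjusted p up to 0.561, 0.553 and 0.536. All 3 ended without IRI_day3 replicate 2 and without IRI_day7 replicate 4. Those of Ncoa1 and Rxrb also ended without IRI_day3 replicate 1 or 4 or IRI_day7 replicate 1, and that of Rxrb also without IRI_day3 replicate 3, IRI_day7 replicate 2 or 3 or sham replicate 1.

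Among genes known to respond to retinoic acid, 8 of 12 tested changed at day 3, 4 higher and 4 lower, or 66.7% beside 57.3% of all genes. Gprc5a, a receptor-like gene first found as induced by retinoic acid, read -0.58 ± 0.78 at day 3 (SD, n = 4) and stood above background on 0 of 4 arrays at day 7 and in sham. It was at least 10.5-fold higher at day 3 than in sham (limma adjusted p = 5.93e-06) and at least 9.68-fold lower at day 7 than at day 3 (0.000168). Tgm2 (transglutaminase 2) rose by 1.31 at day 3 and 1.67 at day 7 (limma adjusted p = 0.000509 and 0.00102). It was the 1 gene of 12 that passed against sham at day 7, beside 18.8% of all genes.

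Rarres2, which encodes chemerin, rose by 1.26 at day 3 and Hoxb1 fell by 1.80 (limma adjusted p = 0.00378 and 0.000442). Between the days, Hoxb1 and Hoxb4, homeobox genes of the body axis, were higher at day 7 by 1.23 and 1.07 (limma adjusted p = 0.0122 and 0.00556).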

How the data were processed

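Whole left kidney RNA of 12 rats in 3 groups of 4 was measured on single-colour Agilent arrays. Per the labels, RNA was extracted with the RNeasy Micro Kit, and the labelling kit named (SureTag) is one for DNA. Per the file headers, the deposited signals are intensity values after background subtraction, made with version 9.5.1.1 of Agilent Feature Extraction, with probes placed on rn4 and no scaling between arrays. The authors' deposited value table holds log2 values. Set against the scanner values, it is relative to the array's 75th percentile and then centred on each probe, with column medians from -0.21 to 0.30, so it gives differences and no level. The mean spot and local background signals are also intensity values, per the file headers, and the flags for outlier spots and for spots above background are scores of 0 or 1, per the file headers.

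Here log2 processed signals were taken minus the array's 75th percentile, outlier spots were dropped and repeat spots of a probe averaged. Probes entered when any group had all 4 of its arrays above background. The brightest probe stood for a gene, which left 18506 genes. Groups were compared in limma 3.58.1 (R 4.3.3), with p-values from both tails adjusted by Benjamini and Hochberg over all genes and a threshold of 0.05. The fit was tested on simulated data. Where all arrays of a group read a probe below background, each such array was set at its own value or at the lowest value above background, whichever was higher, and the fold is written as at least that size. Labels do not say that replicate numbers pair rats, and deviations of same-numbered arrays correlated from -0.330 to 0.142 over 12 pairs. The number of arrays limits the precision.

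The members and all gene lists were chosen with earlier results of these data known. Pathway genes named are, per list and comparison, up to 4 with the largest change among those past the threshold, beside those said to lack a call or a probe. The values of 1 gene in these lists are not reported here. 24 alternatives were run, covering background correction, scaling, filters, probe choice, blocks and each array left out, and 1 more, with arrays below background set at their limit, was chosen after seeing the data. Promoter sequences are from RefSeq on GRCr8, and all 9 members matched. Other probe sequences, which may lie in untranslated parts, are not used here.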

Additional observations from a re-analysis of the deposited data

Results flagged for a closer look

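In 171 groups of 4 arrays (members and tested pathway genes), 5 held 1 array far from the other 3, by a gap above 0.829 of the whole range, and chance gives about 5% of groups. Aldh1a1 read 3.71 in IRI_day3 replicate 3, against 2.89 to 2.96 on the other day 3 arrays, and without it the difference of day 3 minus sham was -1.96. Rdh5 read -6.25 in sham replicate 4, against -2.65 to -2.11 on the others. Rarres2 read -2.69 in sham replicate 3, against -1.28 to -1.23 on the others. Hoxd4 read -1.57 in sham replicate 4, against -1.26 to -1.20 on the others. Gprc5a read -4.8 in sham replicate 3, against -6.09 to -5.89 on the others, and no sham array stood above background for it.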

How the results depend on the processing

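The 24 alternatives were compared by the number of genes called and by the sizes of the member differences. Normexp background correction of the raw spot signals lowered all counts of calls. For day 3 against sham it gave 3055 genes against 10601, 2 members against 6 and 10 pathway genes against 26. For day 7 against sham it gave 85 against 3484, 0 against 4 and 3 against 9, and for day 7 against day 3 it gave 155 against 5814, 0 against 3 and 1 against 18. It reversed Aldh1a3, to -0.41 at day 3 and -0.10 at day 7 relative to sham, and moved Aldh1a2 at day 3 to 0.10 and Rbp4 at day 3 to -3.09. Normexp without spots below their local background gave Aldh1a3 0.30 and 0.42 and Rbp4 -4.32. Keeping only probes above background on all 12 arrays left 3 members called at day 3 and 2 at day 7, because dim members were then not tested. Fitting only the 2 groups compared gave 2086 genes for day 7 against sham. A replicate block gave 11 pathway genes for day 7 against day 3 and changed no other count by more than 1.5 times. With each array left out in turn, calls ran from 9294 to 10741 genes, 6 to 6 members and 24 to 28 pathway genes at day 3 against sham. They ran from 1998 to 3482, 3 to 4 and 5 to 11 at day 7 against sham, and from 3462 to 6702, 2 to 4 and 10 to 20 for day 7 against day 3. Counts for day 7 against sham fell by over 1.5 times without IRI_day7 replicate 1 (2221 genes), without IRI_day7 replicate 3 (1998 genes) and without sham replicate 1 (5 pathway genes). For day 7 against day 3 they did so without IRI_day3 replicate 2 (3638 genes, 10 pathway genes) and replicate 4 (3462 genes). Total signal scaling made 58.6% of called genes higher at day 3 against sham and 78.0% at day 7, beside 42.2% and 43.6%, and the authors' deposited table made 55.3% higher at day 7, while the members' split at day 3 was 4 higher and 2 lower with total signal, quantile and the authors' values, 3 and 2 with normexp without spots below background, and 0 and 2 with normexp. Normexp moved the median of all genes to -0.41, -0.22 and 0.21 in the 3 comparisons, beside -0.13, -0.07 and 0.05. Setting arrays below background at their limit, an alternative chosen after seeing the data, moved Rbp4 at day 3 to -5.98 and reversed no member. The cause of these changes was otherwise not tested.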

Other observations

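A probe that the files name LOC684994 and describe as similar to retinoic acid receptor beta lies outside the genes found by name. Its levels were -3.06, -3.06, -2.99 and -2.89 at day 3 and -2.18, -3.21, -2.93 and -2.50 at day 7, against -0.77, -2.14, -1.55 and -2.42 in sham, with all 12 arrays above background. In these scaled levels the day 3 arrays lay below all sham arrays, and the day 7 arrays overlapped them. Unscaled, the probe read 83.6 to 100.4 intensity units at day 3 and 53.2 to 117.9 at day 7, against 73.5 to 204.7 in sham. The day 3 and sham arrays thus overlapped unscaled, and the lower day 3 levels are relative to the array's percentile. Whether the probe reads Rarb RNA was not tested.

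Lrat, which encodes the enzyme that stores retinol as esters, had 2 probes that did not pass the filter. 1 of the Lrat probes stood above background on 3 of 4 arrays at day 3 and on 0 of 4 at day 7 and in sham, and the other on 2 of 4, 0 of 4 and 0 of 4. Nrip1 and Rdh11 each had 2 probes whose differences of day 3 minus sham had opposite signs, -0.30 and 0.50 for Nrip1 and 0.28 and -0.27 for Rdh11. The probe named Cdx1, a gene known from the intestine, was lower at day 3 than in sham and higher at day 7 than at day 3 after scaling. It read 6.34 ± 0.05 at day 3 and 6.89 ± 0.14 at day 7, against 7.23 ± 0.17 in sham (SD, n = 4) as scaled levels. Unscaled, it read 53189 to 60834 intensity units at day 3 and 53861 to 63122 at day 7, against 39879 to 54460 in sham, so the day 3 and day 7 arrays overlapped and all 8 injured arrays lay above 3 of the 4 sham arrays. Unscaled and scaled values therefore differ in direction against sham, and both calls ended with quantile normalization and with normexp correction. No array marked the probe as saturated.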
